A study of Mus musculus with 6 samples.

Results

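The FMRP family and its partners were examined as RNAs held by AGO2: *Fmr1*, its paralogues *Fxr1* and *Fxr2*, the CYFIP genes *Cyfip1* and *Cyfip2*, and *Caprin1*. These 6 genes, of the 49997 gene bodies in mouse RefSeq, were chosen by name because their proteins meet FMRP, with which the RNA helicase MOV10 associates. Every cluster of AGO2 reads, and every target cluster of chimeric reads, that overlaps one of them on its own strand by at least 1 nt was taken. They held 186 of 359172 AGO2 clusters in WT and 333 of 616014 and 333 of 616005 in *Mov10* Deletion replicates 1 and 2. Of the chimeric target assignments, they held 14 of 22074, 20 of 30526 and 7 of 13468 in the same order.

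AGO2 was immunoprecipitated (IP) from UV-crosslinked whole brains of C57Bl/6J pups at postnatal day 0 by chimeric eCLIP, a protocol that joins some miRNAs to the target RNA lying beside them in AGO2. There was 1 WT library and 2 from *Mov10* Deletion, each set against its own size-matched input. Per the study's methods, *Mov10* Deletion came from crossing floxed *Mov10* (fl/fl, exons 6 and 7) carrying *Emx1*-Cre with a *Mov10* heterozygote. *Emx1*-Cre is a driver of excitatory neurons of neocortex and hippocampus, so that a whole brain also holds many cells without Cre. Fewer cells of a type and less AGO2-bound RNA per cell cannot be told apart in such tissue. Because WT is a single library, its values have no spread, no test was made between genotypes, and every p-value is the authors' test of IP against input within 1 cluster.

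FMRP, encoded by *Fmr1*, binds mRNAs in dendrites and represses their translation, and its loss causes Fragile X syndrome. FXR1P and FXR2P share its RNA-binding domains. CYFIP1 and CYFIP2 link FMRP to the cap-binding protein and to the WAVE complex, which drives actin branching, and CAPRIN1 is a granule protein found with FMRP in neurons. AGO2 is guided to mRNAs by miRNAs, which pair mainly through nucleotides 2 to 8, the seed, and usually with sites in the 3'UTR.

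Chimeric reads assigned 15 miRNAs to these genes. Mature sequences (RefSeq, 5′ to 3′) are shown for those with a full or partial seed match in a target cluster they were assigned to, with the seed in capitals.
miR-9-5p: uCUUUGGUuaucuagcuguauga
miR-128-3p: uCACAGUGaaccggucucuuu
miR-26a-5p: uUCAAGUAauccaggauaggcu
miR-323-3p: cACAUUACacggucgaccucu
let-7a-5p: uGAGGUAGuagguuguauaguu
let-7b-5p: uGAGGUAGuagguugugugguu
miR-103-3p: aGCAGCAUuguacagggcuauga
miR-9-5p was assigned to *Fxr1*, *Fmr1* and *Cyfip2*, miR-128-3p to *Fxr2*, miR-26a-5p to *Cyfip1*, miR-323-3p to *Fmr1* and miR-103-3p to *Caprin1*. let-7a-5p, let-7b-5p and let-7c-5p share the seed GAGGUAG and were assigned to *Cyfip2*, *Caprin1* and *Fmr1*. miR-124-3p was the most frequent, with 19 of the assignments across the 3 libraries and 5 of the genes. No sequence was held for it, so it is not shown and its target clusters were not searched for a match.

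The sites that answer these seeds inside the target clusters follow, sense strand of GRCm39, 5′ to 3′, with the bases complementary to the miRNA in capitals.
*Fxr2*, miR-128-3p: ttctggggcctcatCACTGTGga
*Fxr1*, miR-9-5p: cttgtacaagcttgCCAAAGat
*Cyfip1*, miR-26a-5p: caCTATCCTGGAcaagTACTTGAaa
*Fmr1*, miR-323-3p: ggtagaatgaccttGTAATGTaa
*Fmr1*, miR-9-5p: aaaactttgttaggCCAAAGac
*Cyfip2*, let-7a-5p and let-7b-5p: atgtccagccttatTACCTCta
*Cyfip2*, miR-9-5p: cctactatgccctcACCAAAtt
*Caprin1*, miR-103-3p: tcctcatcccttccTGCTGCtt
Target clusters in exons were searched on the sense strand for the 7 nt complementary to the seed or, failing these, for either 6-nt part of them. Of 34 exonic assignments, 19 had a miRNA sequence to search with, and all the others were of miR-124-3p. A 7-nt match was found in 4 of the 19, a 6-nt match alone in 9 and neither in 6. A site was counted again for each library that listed it, so the distinct sites are fewer and are those shown above. For the matched assignments, 0.218% to 1.78% of central windows of the same width and region held the 7-nt match. Either 6-nt part was held by 3.07% to 4.98%. A match is a description of the letters in the window and does not show pairing.

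Enriched clusters are those whose IP over input reached 3 on the log2 scale with a −log10 p of 3 or more. In WT, 4 of 186 clusters in the 6 genes were enriched (2.15%, exact Clopper-Pearson 95% interval 0.589 to 5.41), against 2.11% of all clusters of the library. In *Mov10* Deletion replicate 1 there were 24 of 333 (7.21%, 4.67 to 10.5) against 5.18%, and in replicate 2 there were 13 of 333 (3.90%, 2.09 to 6.58) against 3.1%. The background lay inside the interval in every library, so the share of clusters enriched in these genes was near that of all clusters. Adjoining clusters can share reads, which makes these intervals too narrow, and they cover counting error only. The enriched clusters lay in 2 runs of adjoining clusters in WT, 11 in replicate 1 of *Mov10* Deletion and 6 in replicate 2, where a run goes on through clusters that were not enriched.

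Where those clusters lay differed between libraries. All 4 of WT were in 3'UTRs. In *Mov10* Deletion replicate 1, 7 were in 3'UTRs, 9 in coding sequence and 8 in introns, and in replicate 2, 4 were in 3'UTRs, none in coding sequence and 9 in introns. The 9 coding clusters of replicate 1 were all in *Cyfip1*, whose 11 enriched clusters fell into 4 runs. The 9 intronic clusters of replicate 2 were all in *Cyfip2*, in 5 runs. The share of each region over all clusters of a library was not computed, so no shift between regions is read from these counts. The reads behind them, inferred from the deposited ratio and p-value, also differed, with a median of 76.5 IP reads per enriched cluster in WT, 17 in replicate 1 of *Mov10* Deletion and 12 in replicate 2. With a single input read, the fewest IP reads that met both limits were 16 in WT against 9 and 8 in *Mov10* Deletion, and 10 enriched clusters of each *Mov10* Deletion library had under 16. The part of read depth in the larger number of enriched clusters in *Mov10* Deletion was not tested.

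By gene, 2 of the 6 held an enriched cluster in WT (*Fxr1* and *Fxr2*), against 18.7% of all genes with a cluster. There were 4 in replicate 1 of *Mov10* Deletion (*Fxr1*, *Fxr2*, *Cyfip1* and *Cyfip2*) against 40.9%, and 2 in replicate 2 (*Fxr2* and *Cyfip2*) against 32.1%. In both *Mov10* Deletion libraries it was *Fxr2* and *Cyfip2*, against 24.1% of genes, and in all 3 libraries *Fxr2* alone, against 15.6%. Cluster number in WT was at percentile 43.1 (*Fxr2*) to 94.3 (*Cyfip2*) of genes with a cluster, and these shares were not matched for it. *Fmr1* and *Caprin1* had no enriched cluster in any library, nor any cluster with a −log10 p of 3 at any fold.

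**Figure D1:**
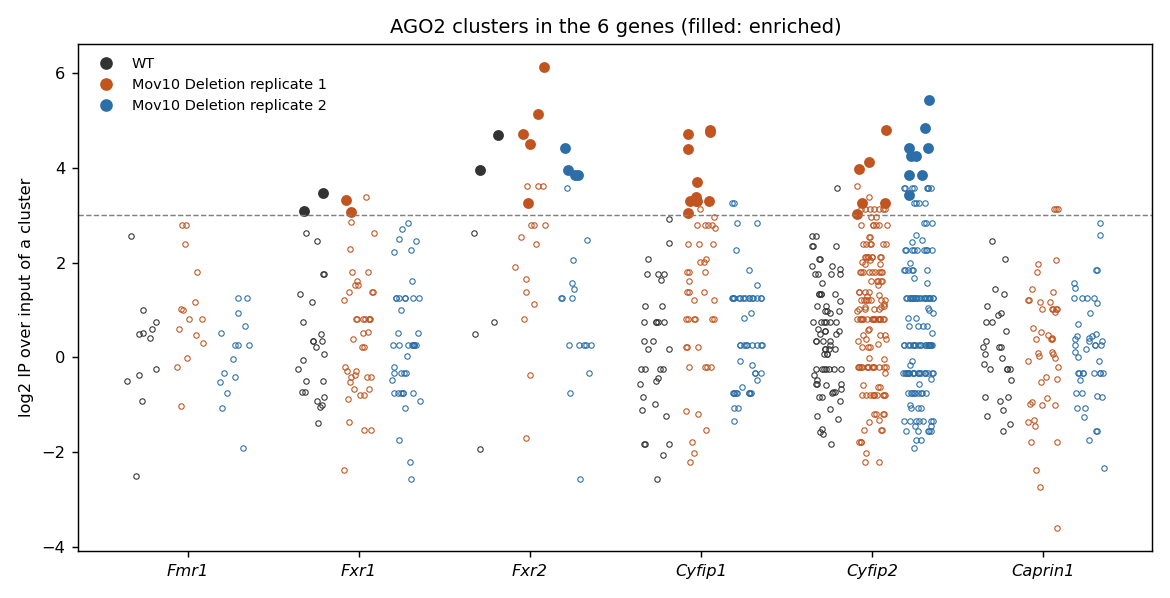
Log2 IP over input (vertical axis) of every AGO2 cluster in the 6 genes (horizontal axis), coloured by library, with enriched clusters filled and the dashed line at a log2 of 3. *Fxr2* has filled points in all 3 libraries, *Cyfip1* only in *Mov10* Deletion replicate 1, and *Fmr1* and *Caprin1* in none.

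*Fxr2* (NCBI gene 23879, mm10 chromosome 11, 69632971 to 69653297, plus strand) encodes a cytoplasmic paralogue of FMRP that binds ribosomes. Over its clusters above input it had the highest summed IP over input of the members in each library, and its enriched clusters lay in the 3'UTR, which is 598 nt long, in every library. In WT they covered 69652866 to 69653036, at log2 3.95 (−log10 p 11, from 55 inferred IP reads over 3 input reads), and 69653037 to 69653239, at log2 4.69 (−log10 p 13.5, 61 over 2). Both WT clusters of the 3'UTR were thus enriched, over a few input reads.

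In *Mov10* Deletion the same stretch was split into 5 clusters, all of which overlapped a WT one. In replicate 1 all 5 were enriched, with log2 values from 3.26 to 6.12. In replicate 2, 4 were enriched, with log2 values from 3.84 to 4.42, and the fifth, nearest the gene end, reached 2.06 on 7 IP reads over 4. The highest in each was the cluster at 69652882 to 69652995, with a log2 of 6.12 in replicate 1 (40 IP reads over 1 input read, 95% counting interval 3.56 to 11.5) and 4.42 in replicate 2 (36 over 4, 2.94 to 6.38). With so few input reads the upper ends are poorly set, and whether an input of 1 can also stand for 0 is not given. The intervals of the replicates overlapped with each other and with the 2.77 to 7.76 of the WT cluster with a log2 of 4.69.

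Summed over the 3'UTR clusters above input, IP over input was 19.6-fold in WT (95% counting interval 8.16 to 61.5), 23.9-fold in replicate 1 of *Mov10* Deletion (11.7 to 56.8) and 13.7-fold in replicate 2 (7.85 to 25.5). These overlapped in all 3 libraries. Coding sequence gave 1.69-fold (0.526 to 6.30), 3.17-fold (1.7 to 6.11) and 2.54-fold (1.18 to 5.53), so that within each library the 3'UTR interval lay above that of the coding sequence. Introns gave 3.80-fold (1.54 to 11.3), 5.44-fold (3.05 to 10.2) and 2.39-fold (1.02 to 5.59). The 3'UTR interval thus overlapped that of the introns in WT and lay above it in both *Mov10* Deletion libraries. Set among all genes whose clusters reached a −log10 p of 3, the highest log2 of *Fxr2* was at percentile 82.4 in WT, 97.3 in replicate 1 of *Mov10* Deletion and 47.5 in replicate 2.

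The chimeric reads named the same miRNAs on *Fxr2* in WT and in *Mov10* Deletion replicate 1. A miR-124-3p target cluster lay at 69652885 to 69652980 in WT, with a deposited score of 27.2 (percentile 96.8 of its library). In replicate 1 it lay at 69652898 to 69652969, with a score of 16.3 (percentile 96.7). A miR-128-3p target cluster lay at 69653071 to 69653179 in WT (score 10.8) and at 69653078 to 69653165 in replicate 1 (score 10.9). The 7-nt match to the miR-128-3p seed (CACTGTG, chr11:69543920-69543926 of GRCm39, nucleotides 395 to 401 of the 3'UTR) lay inside both. The same letters occur in 1.78% of the central 3'UTR windows of 109 nt taken from 19471 transcripts. *Mov10* Deletion replicate 2 listed no target on *Fxr2*, but the AGO2 cluster over that site was enriched there too, with log2 values of 4.69 in WT, 5.12 in replicate 1 and 3.84 in replicate 2. Outside the 3'UTR, WT listed a second miR-124-3p target in an intron (score 9.71) and replicate 1 a miR-200b-3p target in an intron (score 3.03), both with no AGO2 cluster under them.

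*Fxr1* (NCBI gene 14359, mm10 chromosome 3, 34020058 to 34069980, plus strand) encodes a paralogue abundant in muscle as well as brain. AGO2 clusters above a log2 of 2 with a −log10 p of at least 3 lay in the 3'UTR, where a run between 34069105 and 34069548 was covered in all 3 libraries. In WT, the cluster at 34069109 to 34069259 stood at log2 3.47 (−log10 p 13.6, 92 IP reads over 7), and the one at 34069327 to 34069499 stood at 3.09 (−log10 p 16.4, 121 over 12). The cluster between them had a log2 of 2.61, and a separate one nearer the gene end, at 34069884 to 34069931, had 2.46. Among all genes compared, the highest log2 of *Fxr1* was at percentile 42.5 in WT and at 17.1 and 5.43 in the *Mov10* Deletion replicates.

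In *Mov10* Deletion replicate 1 the 5 clusters of the run had log2 values of 2.29, 2.63, 2.85, 3.06 and 3.32 from the stop codon towards the gene end, and the last 2 were enriched. In replicate 2 the same clusters had 2.71, 2.50, 2.46, 2.22 and 1.62, and none was enriched. The reads behind the longest of them, at 34069339 to 34069505, were 101 over 21 in replicate 1 (log2 3.06, 95% counting interval 2.38 to 3.82) and 41 over 21 in replicate 2 (log2 2.22, 1.43 to 3.05), against 2.23 to 4.08 for the WT cluster over it. The order of the 5 values along the gene was thus opposite in the *Mov10* Deletion libraries, though neighbouring clusters can share reads. The interval of the highest cluster was 1.77 to 5.31 in replicate 1 and 1.49 to 4.09 in replicate 2. Each held all 5 values of its library, so the order is not read as a difference.

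Summed over the 3'UTR clusters above input, IP over input of *Fxr1* was 8.09-fold in WT (5.58 to 12.1), 7.01-fold in replicate 1 of *Mov10* Deletion (5.34 to 9.33) and 5.04-fold in replicate 2 (3.61 to 7.10). Introns gave 1.62-fold (1.06 to 2.51), 2.17-fold (1.63 to 2.91) and 1.86-fold (1.29 to 2.67). The 3'UTR stood above the introns in each library, and its intervals overlapped between all 3. The 3'UTR of the canonical transcript runs 674 nt past the RefSeq gene end, and no AGO2 cluster was listed there in any library.

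*Fxr1* was the one member with the same miRNAs at overlapping places in all 3 libraries. *Cyfip2* also had miR-124-3p in all 3, but at different places. miR-9-5p was assigned to 34069112 to 34069176 in WT with a score of 22.8 (percentile 95.8 of its library). In both *Mov10* Deletion libraries it was assigned to 34069106 to 34069187, with scores of 16.7 in replicate 1 (percentile 96.9) and 8 in replicate 2 (89.8). miR-124-3p was assigned downstream, at 34069295 to 34069369 in WT (score 35.9) and at 34069263 to 34069392 in *Mov10* Deletion (18.2 in replicate 1 and 9 in replicate 2). The WT score of 35.9 was at percentile 98.0 of its library, and the *Mov10* Deletion scores were at 97.3 and 92.0. A 6-nt match to miR-9-5p (CCAAAG, chr3:34123302-34123307 of GRCm39, nucleotides 66 to 71 of the 3'UTR) lay inside the miR-9-5p target cluster of each library. The AGO2 cluster over it had a log2 of 3.47 in WT, 2.29 in replicate 1 and 2.71 in replicate 2, and was enriched in WT alone. Either 6-nt part of the seed match occurs in 4.06% of 3'UTR windows of 65 nt.

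**Figure D2:**
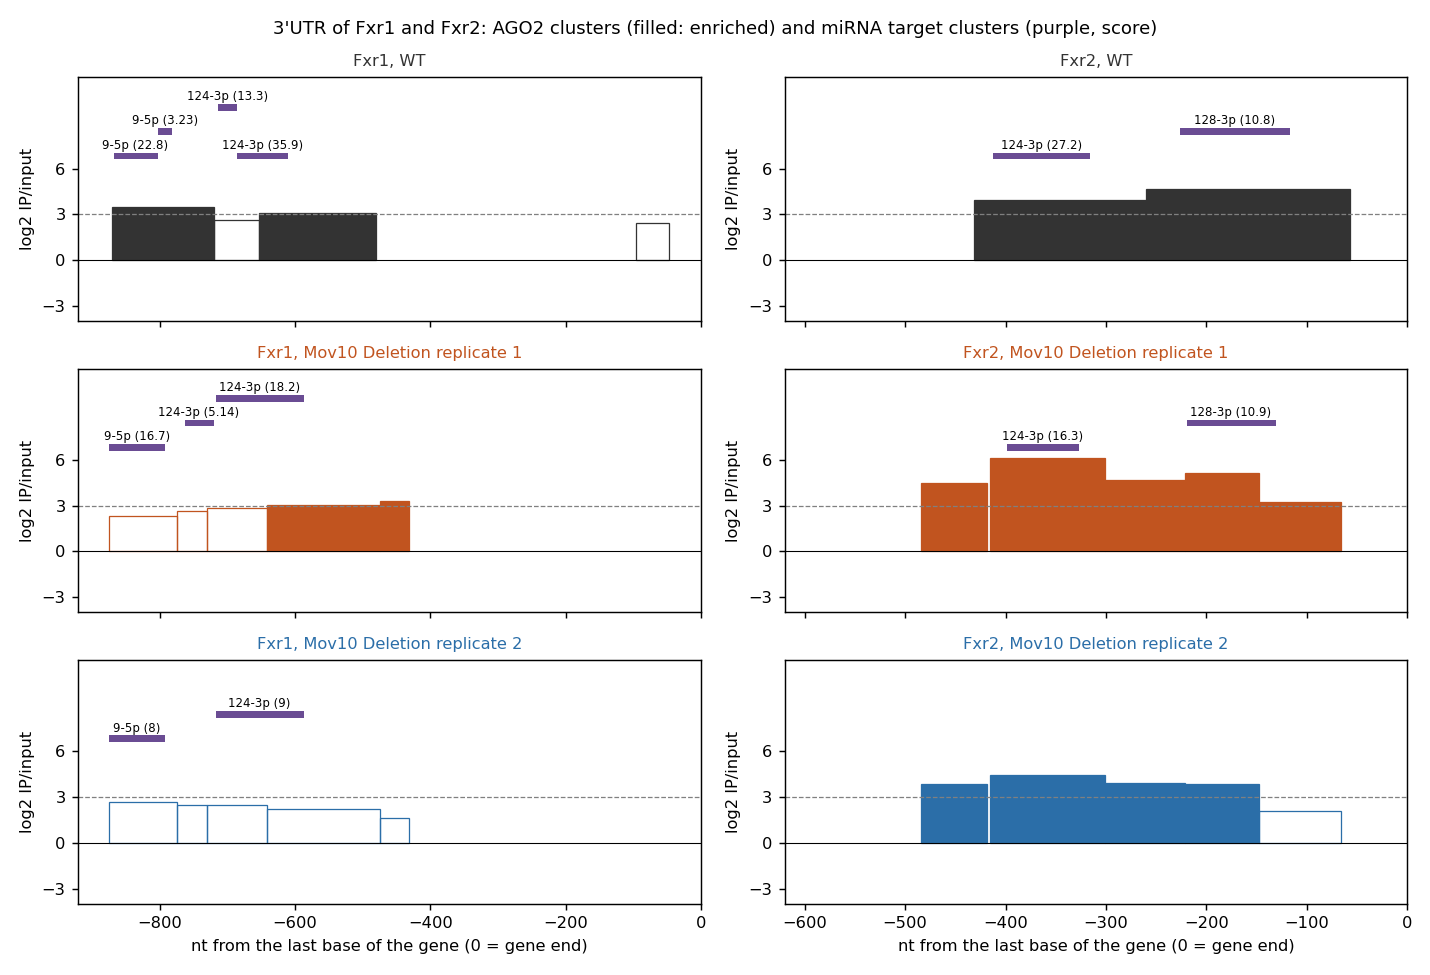
Log2 IP over input (vertical axis) of AGO2 clusters in the 3'UTR of *Fxr1* (left) and *Fxr2* (right), against nucleotides from the gene's last base, in WT, *Mov10* Deletion replicate 1 and replicate 2 from top to bottom, with enriched clusters filled and the dashed line at 3. Purple bars mark miRNA target clusters with miRNA name and deposited score, and the *Fxr1* miR-9-5p and miR-124-3p bars recur in all 3 libraries while *Fxr2* has none in replicate 2.

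*Fmr1* itself (NCBI gene 14265, mm10 chromosome X, 68678536 to 68717963, plus strand) was covered by 12 clusters in WT and 15 in each *Mov10* Deletion library, none enriched. Its highest log2 was 2.56 in WT, 2.80 in replicate 1 and 1.25 in replicate 2, all in introns and on few reads (7 IP reads over 1 for the WT cluster). Over its 3'UTR of 2288 nt, summed IP over input of the clusters above input was 1.53-fold in WT (1.08 to 2.18), 1.45-fold in replicate 1 (1.04 to 2.02) and 1.66-fold in replicate 2 (0.819 to 3.28). Only clusters above input were summed, which sets these folds above 1, and with clusters below the input added the whole gene gave 1.05-fold, 1.43-fold and 0.977-fold. The *Fmr1* intervals of the 3'UTR lay below those of *Fxr1* and *Fxr2* in each library.

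Chimeric reads nevertheless named miRNAs on *Fmr1*. In WT there were 4 targets. Those in the 3'UTR were miR-124-3p at 68716200 to 68716288 (6.61), miR-323-3p at 68717269 to 68717360 (3.60) and miR-9-5p at 68715742 to 68715814 (3.38). A further miR-124-3p target lay in an intron (3.47). The score of 6.61 was at percentile 70.6 of its library, and the others were at 20.1 to 25.2. *Mov10* Deletion replicate 1 listed miR-9-5p alone, at 68715725 to 68715803 and at the minimum score of 3, and replicate 2 listed let-7c-5p alone, also at 3. The miR-9-5p clusters of WT and replicate 1 overlapped and held the same 6-nt match (CCAAAG, chrX:67759360-67759365 of GRCm39). The AGO2 cluster over it had a log2 of 0.60 in WT and -0.01 in replicate 1. The miR-323-3p cluster held a 7-nt match to its seed (GTAATGT, chrX:67760936-67760942), letters found in 0.512% of 3'UTR windows of 92 nt, and the AGO2 cluster over it had a log2 of 1.00 in WT, 1.16 in replicate 1 and 0.93 in replicate 2. The list of replicate 2 is the shortest, so the absence of a target from it says little.

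*Cyfip1* (NCBI gene 20430, mm10 chromosome 7, 55842022 to 55932633, plus strand) encodes the FMRP partner that also binds the cap-binding protein eIF4E. It had 34 clusters in WT with none enriched and 52 in each *Mov10* Deletion library, of which 11 were enriched in replicate 1 and none in replicate 2. Those 11 fell into 4 runs, and 9 of them were in coding sequence. They rested on 12 to 32 IP reads over 1 to 4 input reads. In replicate 2 the same 11 clusters had log2 values from -1.07 to 2.84, and 3 of them were below the input.

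The run nearest the gene end held the highest values. At 55930057 to 55930097, in the coding sequence 2536 to 2576 nt before the end, log2 was 4.80 in replicate 1 (32 IP reads over 2, 95% counting interval 2.83 to 7.91) and 2.84 in replicate 2 (6 over 2, 0.356 to 6.18). The WT cluster over it, at 55930039 to 55930110, stood at log2 2.93 (−log10 p 1.59, 9 over 1, 0.0749 to 8.38). All 3 libraries were thus above input at this place, with overlapping intervals, and replicate 1 had the most IP reads there. The adjoining WT cluster, at 55930111 to 55930307 in the 3'UTR, stood at log2 2.42 (−log10 p 2.66, 19 over 3). It overlapped the cluster of the run at 55930098 to 55930213, which had a log2 of 2.97 in replicate 1 and 1.52 in replicate 2. The other 3 runs, 1 in an intron and 2 in coding sequence, overlapped no WT cluster.

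Under that run lay the miR-26a-5p target of *Mov10* Deletion replicate 1, at 55930042 to 55930097, with a score of 15.9 (percentile 96.6 of its library). It was the only target cluster of the *Cyfip* genes on an enriched AGO2 cluster. The cluster holds the 7-nt match to the miR-26a-5p seed (TACTTGA, chr7:55579821-55579827 of GRCm39), letters found in 0.218% of the central coding windows of 56 nt from 21526 transcripts. Beyond the seed, 10 nt of the target (CTATCCTGGA) are complementary to nucleotides 10 to 19 of miR-26a-5p, separated from the seed match by 4 nt on the target and 1 nt on the miRNA. A run of 10 nt complementary to any part of this miRNA after its seed was found in 0.0186% of the same windows. Across the other 18 searched assignments the longest such run was 3 to 7 nt. This pairing was looked at after the values were seen. No target was listed there in WT or replicate 2, and the other *Cyfip1* target, miR-20a-5p in replicate 1, had a score of 3.86 with no AGO2 cluster under it.

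*Cyfip2* (NCBI gene 76884, mm10 chromosome 11, 46193849 to 46312859, minus strand), the neuron-rich paralogue and a subunit of the WAVE complex, is the longest of the 6 genes at 119011 nt and had the most clusters, 79 in WT and 154 in each *Mov10* Deletion library. The predicted gene *Gm12568* lies on the same strand within this span, so reads there are not certain to be from *Cyfip2*. None was enriched in WT, 6 were in replicate 1 and 9 in replicate 2, and all of these were in introns. They rested on few reads, 9 to 16 IP reads in replicate 1 and 8 to 18 in replicate 2, over 1 to 3 input reads. The 3'UTR, of 2445 nt, held no enriched cluster in any library, and its highest log2 was 0.60 in WT, 2.38 in replicate 1 and 1.67 in replicate 2.

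Just 1 cluster of *Cyfip2* was enriched in both *Mov10* Deletion libraries, in the intron at 46224390 to 46224466, with a log2 of 4.80 in replicate 1 (16 IP reads over 1) and 5.42 in replicate 2 (18 over 1). No WT cluster overlapped it and no miRNA was assigned to it. The 8 clusters enriched in replicate 2 alone, with log2 values from 3.42 to 4.84, were all below the input in replicate 1, at -2.01 to -0.20. The 5 enriched in replicate 1 alone had log2 values of -0.33 to 1.58 in replicate 2. Most of the intronic enrichment of *Cyfip2* was therefore not shared by the *Mov10* Deletion brains.

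Of 11 miRNA target assignments of *Cyfip2*, 8 were in coding exons. In WT these were miR-9-5p (6.45), miR-124-3p (4.81) and let-7a-5p (3). The place at 46240000 to 46240063 was listed in all 3 libraries with a different miRNA each time, let-7a-5p in WT, miR-124-3p in replicate 1 (3.01) and let-7b-5p in replicate 2 (3). Within it are 6 nt complementary to the let-7 seed (TACCTC, chr11:46130843-46130848 of GRCm39, minus strand), as 3.25% of coding windows of 69 nt do. The AGO2 cluster over it had a log2 of 0.76 in WT, 1.02 in replicate 1 and 1.84 in replicate 2, none of them enriched. Introns gave miR-138-5p (4.6) and miR-466i-5p (5) in replicate 1 and miR-124-3p (3) in replicate 2, the last over an AGO2 cluster below the input (log2 -0.33).

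**Figure D3:**
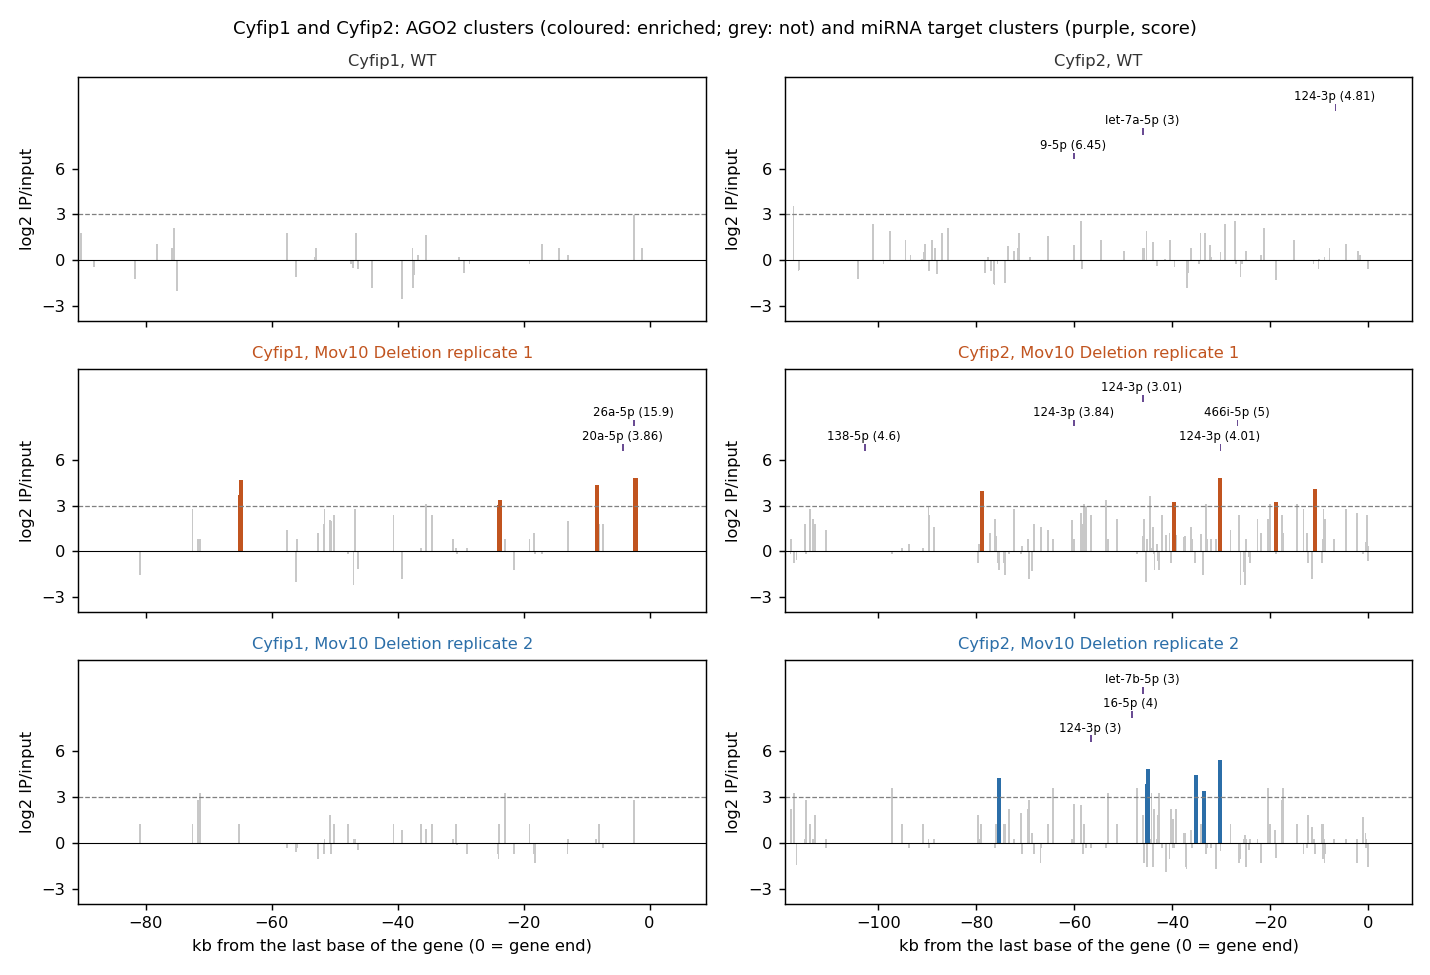
Log2 IP over input (vertical axis) of AGO2 clusters along *Cyfip1* (left) and *Cyfip2* (right), against kilobases from the gene's last base, for the 3 libraries from top to bottom; coloured bars are enriched clusters, drawn wider than to scale, and grey ones are not. Purple ticks give miRNA target clusters with scores, and of the enriched places only the *Cyfip2* cluster at a log2 of 4.80 and 5.42 recurs between the *Mov10* Deletion libraries.

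*Caprin1* (NCBI gene 53872, mm10 chromosome 2, 103762945 to 103797669, minus strand) had 29 clusters in WT and 48 in each *Mov10* Deletion library, none enriched. *Nat10* overlaps its end on the same strand, so clusters there could come from either gene. Its highest log2 was 2.46 in WT, 3.12 in replicate 1 and 2.84 in replicate 2, and none of these reached a −log10 p of 3. The 3'UTR, the longest of the members at 4165 nt, gave a summed IP over input of 1.82-fold in WT (0.912 to 3.83), 1.49-fold in replicate 1 (1.01 to 2.18) and 1.23-fold in replicate 2 (0.654 to 2.23). Its miRNA targets were all in coding exons, 0 in WT, 4 in replicate 1 and 1 in replicate 2. Those of replicate 1 were miR-125b-5p (score 10, log2 of the AGO2 cluster under it 0.96), miR-124-3p (5), let-7b-5p (5) and miR-103-3p (4). The cluster at 103775418 to 103775492 was assigned to let-7b-5p in replicate 1 and to miR-124-3p in replicate 2 (3).

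Whole genes were ordered by the inferred IP reads over input reads of their clusters above input. In WT, *Fxr2* (8.08-fold, 95% counting interval 4.82 to 14.5) and *Fxr1* (4.66, 3.58 to 6.15) came first, followed by *Cyfip1* (2.26, 1.56 to 3.34), *Cyfip2* (1.94, 1.62 to 2.34), *Caprin1* (1.67, 1.27 to 2.20) and *Fmr1* (1.59, 1.17 to 2.17). *Fxr2* and *Fxr1* overlapped with each other, as did the last 4, but both lay above those 4. In *Mov10* Deletion replicate 1 the order was *Fxr2* (8.08, 5.76 to 11.6), *Cyfip1* (6.17, 4.96 to 7.73), *Fxr1* (4.25, 3.51 to 5.16), *Cyfip2* (3.06, 2.7 to 3.48), *Caprin1* (1.77, 1.49 to 2.12) and *Fmr1* (1.73, 1.32 to 2.25). There the intervals of each neighbouring pair overlapped except *Fxr1* with *Cyfip2*, whose nearest ends were 3.51 and 3.48, and *Cyfip2* with *Caprin1*. In replicate 2 it was *Fxr2* (6.51, 4.57 to 9.41), *Cyfip2* (3.80, 3.21 to 4.51), *Fxr1* (3.21, 2.54 to 4.07), *Cyfip1* (2.52, 1.80 to 3.51), *Caprin1* (1.67, 1.35 to 2.06) and *Fmr1* (1.62, 0.883 to 2.90). On these sums *Fxr2* headed every library, and *Caprin1* and *Fmr1* closed every library. In replicate 2 the nearest ends of *Fxr2* and its neighbour *Cyfip2* were 4.57 and 4.51. Over the last 5000 nt of each gene alone the order differed: *Cyfip1* was at 17.6-fold and *Fxr2* at 9.81-fold in replicate 1, and *Cyfip2* was below *Caprin1* in WT (1.41 and 1.82) and in replicate 2 (1.79 and 1.89). With clusters below the input added, *Fxr2* gave 4.17-fold in WT, 5.17-fold in replicate 1 and 4.51-fold in replicate 2, and *Fxr1* gave 2.42-fold, 2.51-fold and 2.00-fold. Adjoining clusters can share reads, so the intervals of these sums are too narrow. The gap between *Fxr1* and *Cyfip2* in replicate 1 is thus not firm, nor is that between *Fxr2* and *Cyfip2* in replicate 2. With 1 cluster per run, replicate 1 gave 6.04-fold for *Fxr2*, 4.65 for *Cyfip1*, 3.37 for *Fxr1* and 2.93 for *Cyfip2*. That setting was chosen after seeing the data.

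Between genotypes the gene-level folds of *Fxr2*, *Fxr1*, *Fmr1* and *Caprin1* had overlapping intervals in WT and both *Mov10* Deletion libraries. *Cyfip1* stood at 6.17-fold in replicate 1 against 2.26 in WT and 2.52 in replicate 2, so that the *Mov10* Deletion libraries differed from each other and replicate 2 overlapped with WT. *Cyfip2* was above WT in both replicates, with no overlap of intervals. The WT and *Mov10* Deletion lists hold different clusters, with 31.9% of the 13723 nt covered in WT also covered in *Mov10* Deletion. For *Cyfip2* the shared part was 21.5% of the WT nt and 14.7% of the *Mov10* Deletion nt, so mostly different places were compared. Also, 1 IP read over 1 input read was 0.845-fold in WT, below input, but 1.74-fold and 2.39-fold in *Mov10* Deletion replicates 1 and 2. The sums above input thus select clusters differently by library, and their difference is not read as one of genotype. With clusters below the input added, *Cyfip2* gave 1.24-fold in WT, 2.18-fold in replicate 1 and 1.97-fold in replicate 2, and *Cyfip1* gave 1.17-fold, 4.16-fold and 1.46-fold.

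**Figure D4:**
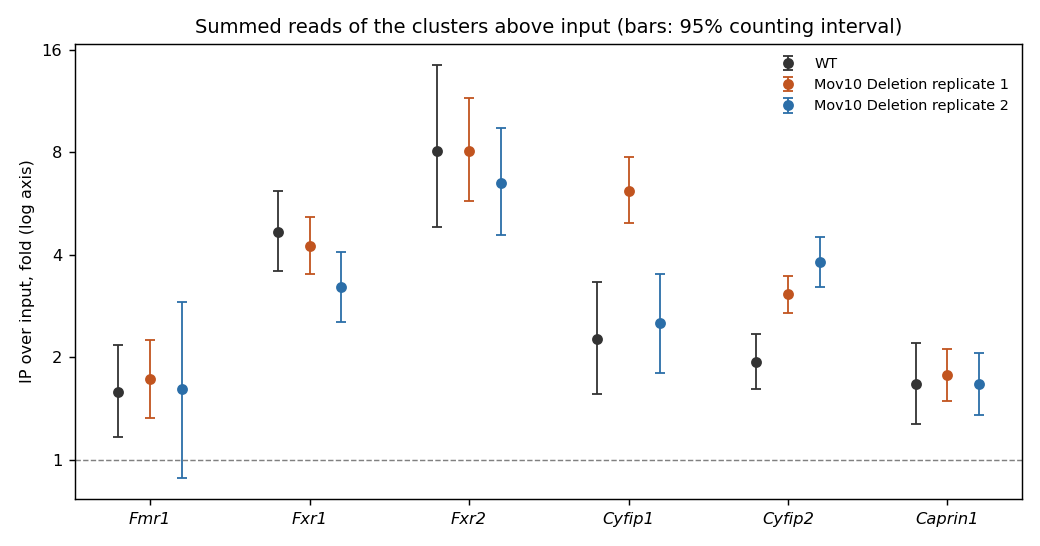
IP over input (vertical log axis, fold) from the inferred reads summed over each gene's clusters above input, for the 6 genes and 3 libraries; points are sums and bars are 95% counting intervals. *Fxr2* has the highest point in each library (8.08, 8.08 and 6.51), *Fmr1* and *Caprin1* stay between 1.59 and 1.77, and *Cyfip1* splits the *Mov10* Deletion libraries at 6.17 and 2.52.

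The *Mov10* Deletion libraries list all 333 clusters of the 6 genes at identical coordinates, and differ only in IP over input and its p-value. Of these, 5 were enriched in both, 4 in *Fxr2* and 1 in *Cyfip2*. Log2 was lower in replicate 2 for 219 of the 333, with a median difference (replicate 2 minus replicate 1) of -0.83 and an SD of 2.14. *Fxr2* had a median difference of -1.24 and was lower in 17 of 20 clusters, and *Cyfip1* had -1.29 and was lower in 37 of 52. The −log10 p is deposited as 0 for clusters below the input.

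**Figure D5:**
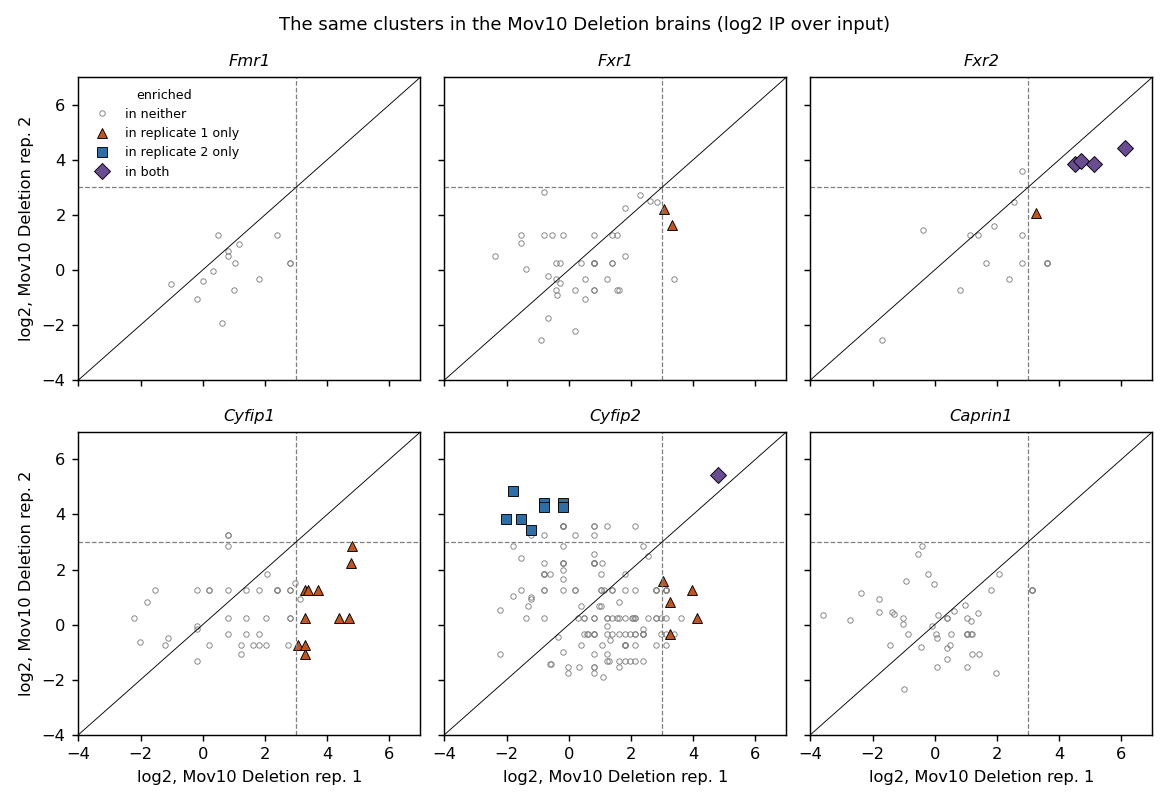
Log2 IP over input of the same 333 clusters in *Mov10* Deletion replicate 1 (horizontal axis) and replicate 2 (vertical axis), 1 panel per gene, with dashed lines at 3 and the diagonal of equal values. Diamonds, enriched in both, number 4 in *Fxr2* and 1 in *Cyfip2*, while the 11 triangles of *Cyfip1* are enriched in replicate 1 alone and the 8 squares of *Cyfip2* in replicate 2 alone.

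Chimeric targets fell on 4 of the 6 genes in WT, on 6 in replicate 1 of *Mov10* Deletion and on 4 in replicate 2, against 40.9%, 45.9% and 32.2% of all genes with an AGO2 cluster. These shares were not matched for cluster number. Of the 14 assignments in WT, 9 were in 3'UTRs, 3 in coding exons and 2 in introns. Replicate 1 had 6, 10 and 4 of its 20, and replicate 2 had 3, 3 and 1 of its 7. An AGO2 cluster lay under 12, 13 and 5 of them, and an enriched one under 5 in WT, 4 in replicate 1 and 0 in replicate 2. miR-124-3p took 7 of 14 in WT (50.0%, exact 95% interval 23.0 to 77.0), 9 of 20 in replicate 1 (45.0%, 23.1 to 68.5) and 3 of 7 in replicate 2 (42.9%, 9.90 to 81.6), against 42.2%, 34.8% and 36.8% of all assignments of each library, which lay inside these wide intervals. miR-9-5p and miR-124-3p were the miRNAs seen on the members in all 3 libraries.

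Among 21 listed genes of FMRP-binding proteins and FMRP granules, 9 held an enriched cluster in WT, 11 in replicate 1 of *Mov10* Deletion and 9 in replicate 2, and 6 did so in all 3. These shares of 42.9%, 52.4% and 42.9% stand beside the 18.7%, 40.9% and 32.1% of all genes, and the 28.6% in all 3 libraries beside 15.6%. The listed genes held 9 to 165 clusters each in WT, where the 12 of *Fmr1* were at percentile 62.5 of genes with a cluster. A gene with more clusters has more chances to hold an enriched one. The shares of this and the next lists were not matched for cluster number. Over the 12, 16 and 16 of them with a cluster at a −log10 p of 3, the median highest log2 was 3.57, 4.19 and 3.60, against 3.76, 4.26 and 4.42 over all such genes. Highest by the lowest of the 3 libraries were *Dicer1*, which cuts miRNA precursors (5.15 in WT, 5.05 in replicate 1 and 4.48 in replicate 2), the Argonaute *Ago1* (4.26, 4.97 and 4.58), the helicase *Ddx6* (4.27, 4.55 and 4.26) and *Ago2* itself (4.04, 4.38 and 5.16). *Mov10*, the targeted gene, had 1 enriched cluster of 11 in WT, with a log2 of 4.0, and none of 9 in either *Mov10* Deletion library.

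Of 10 genes of the WAVE complex and CYFIP partners, 8 had a cluster in WT and 10 in *Mov10* Deletion. Those with an enriched cluster numbered 2 in WT (25% against 18.7% of all genes), 7 in replicate 1 (70% against 40.9%) and 3 in replicate 2 (30% against 32.1%). The 2 enriched in all 3 libraries (25% against 15.6%) were *Wasf2* (log2 5.31, 5.38 and 5.50) and *Wasf1* (3.03, 4.01 and 3.76), WAVE proteins that activate actin nucleation. The median highest log2 was 2.86 over 4 genes with a cluster at a −log10 p of 3 in WT, 3.99 over 8 in replicate 1 and 4.58 over 3 in replicate 2, against the same 3.76, 4.26 and 4.42. Of 8 CAPRIN1 granule partners, 2 held an enriched cluster in WT (25% against 18.7%), 5 in replicate 1 (62.5% against 40.9%), 4 in replicate 2 (50% against 32.1%) and none in all 3 (against 15.6%). Their medians were 2.95 over 4 such genes, 3.54 over 8 and 3.50 over 6, each below that of all genes.

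Chimeric targets fell on 19, 18 and 14 genes of the FMRP list (90.5%, 85.7% and 66.7% of those with an AGO2 cluster), on 8, 8 and 7 of the WAVE list (100%, 80% and 70%) and on 6, 8 and 6 of the granule list (75%, 100% and 75%). Over all genes these shares were 40.9%, 45.9% and 32.2%, and they too were not matched for cluster number. By the highest log2 of each library, the protein-coding gene most like *Fxr1* among 2994 genes was *Mob1b* (3.18, 3.38 and 2.84, a Euclidean distance of 0.322 over 3 libraries), and that most like *Fxr2* was the predicted gene *Gm52229* (4.76, 6.16 and 4.42, a distance of 0.0779). The other members had no cluster with a −log10 p of 3 in every library and so had no most similar gene.

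As a check of the tissue, 5 miRNAs of neurons and neural progenitors took 53.9% of all target assignments in WT, 44.7% in replicate 1 of *Mov10* Deletion and 47.2% in replicate 2. Markers of oligodendrocytes, endothelium, blood and microglia, muscle and liver were each at or under 0.344% of assignments in every library, and liver had at most 1 assignment. Blood and microglia markers took 0.0453% in WT against 0.115% and 0.119% in *Mov10* Deletion, and endothelium 0.145% against 0.344% and 0.238%. Their part in the results above was not tested.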

How the data were processed

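Chimeric eCLIP of AGO2 was made from 1 WT and 2 *Mov10* Deletion brains. Per the study's methods, the authors extracted UMIs (UMI-tools 1.1.1), trimmed adapters (cutadapt 3.2), removed repeat reads, mapped to mm10 (STAR 2.7.7a), collapsed PCR duplicates and used CLIPper for the clusters. The deposited log2 values are the authors' IP over size-matched input, and the deposited −log10 p values are the authors' test of the same reads, limited at 400. For chimeric reads the authors mapped miRNAs to the reads with Bowtie 1.2.3 and clustered the rest. The deposited score of a target cluster is not explained in the sources used here and is never under 3. Its median was 4.65 in WT and 4 in each *Mov10* Deletion library, so raw scores are not compared between libraries. Whether *Mov10* Deletion clusters were called per brain is not given in those sources.

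Clusters were joined to same-strand mm10 RefSeq gene bodies (Python 3.11.15, pandas 2.3.3, numpy 2.4.6, scipy 1.17.1, matplotlib 3.10.9). The strand of *Cyfip1* came from GENCODE. Regions were set by cluster midpoint in the Ensembl canonical transcript. No mm10 sequence was used: clusters and GRCm39 sequence were linked by distance from the gene end, and no coordinate was converted. IP and input reads were inferred as the smallest pair that gives both deposited values, for clusters above input only, and exact binomial intervals were taken from them. The inference was tested on simulated data. Total reads per library are not used here. Named clusters, miRNAs and partner genes are the highest by log2 or score and those shared between libraries, and other items were named after their values were seen. The genes and lists were chosen with earlier results of these data known. Alternatives were stricter or looser limits, a minimum of IP reads, a higher score, runs in place of clusters and leaving out each *Mov10* Deletion library.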

Additional observations from a re-analysis of the deposited data

How the results depend on the processing

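Enriched clusters in the 6 genes were 4 (WT), 24 (*Mov10* Deletion replicate 1) and 13 (replicate 2). At a −log10 p of at least 5 they numbered 12 in replicate 1 and 5 in replicate 2. At a log2 of at least 2 WT had 7. With at least 16 inferred IP reads replicate 1 had 14 and replicate 2 had 3. Counting adjoining enriched clusters once, with a break at any cluster between them that was not enriched, gave 3 in WT, 12 in replicate 1 and 6 in replicate 2, an alternative chosen after seeing the data. These numbers follow from the limit or counting rule that was set, and no other cause was tested. Genes with an enriched cluster in *Mov10* Deletion numbered 2 without replicate 1 and 4 without replicate 2. At a score of at least 5, target assignments numbered 8 in WT, 10 in replicate 1 and 2 in replicate 2. With clusters below the input added, also chosen after seeing the data, the summed IP over input of *Fmr1* in replicate 2 went from 1.62-fold to 0.977-fold, and over the last 5000 nt *Cyfip1* (17.6-fold) stood above *Fxr2* (9.81-fold) in replicate 1. The cause was not tested. No paired analysis was possible because WT has 1 library, so the groups share fewer than 2 replicate numbers.

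With 1 WT library, genotype cannot be told apart from library. All enriched clusters of *Cyfip1* and *Cyfip2* rest on 1 to 4 input reads. Whether an input of 1 read can also stand for 0 is not given in the sources used here. Reads were inferred only above the input, so summed folds exceed 1 by construction. Intervals of summed folds count each read as separate, though adjoining clusters can share reads, so they are too narrow. Clusters and targets missing from a list are not shown to be absent from the brain.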
